A study of Mus musculus with 6 samples.

Results

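Nuclear-encoded oxidative phosphorylation genes are the subunit genes of respiratory complexes I to V that lie outside mitochondrial DNA. They were chosen by a pattern on array gene names of the Nduf subunit, Uqcr, Cox4 to Cox8, Atp5 and Sdh series. The pattern left out some genes of these series, among them Cox4i1, Cox7a2l and Ndufab1, and took no Cox4 gene. The choice took 81 of 30119 genes or unnamed transcripts on the array, read by 122 of 39429 probes. Complex I gave 37 genes, complex II 4, complex III 8, complex IV 15 and complex V 17. RNA came from the stem cell side population of the anterior pituitary of female mice, sorted by Hoechst dye efflux with cells of highest Sca1 left out. The GHCre group carried GHCre, a Cre recombinase driven by the growth hormone gene, with the iDTR allele, a diphtheria toxin receptor that Cre switches on. The control group carried iDTR without Cre, and mice of both genotypes were given diphtheria toxin 2 times daily, 4 ng for each g of body weight at a time. The arrays were 2 of GHCre and 2 of control after 3 days, and 1 of GHCre and 1 of control after 10 days. Neither the mice behind each array nor their age is given in the labels, so p-values measure only the spread between these arrays.

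Complexes I and II pass electrons from NADH and succinate to coenzyme Q, complex III passes them to cytochrome c, and complex IV passes them to oxygen. Complexes I, III and IV pump protons as they do so, and complex V uses the proton gradient to make ATP. All except complex II also hold subunits translated inside mitochondria from mitochondrial DNA, so each of these assemblies draws on both genomes. Several nuclear subunits have isoforms made in different tissues, among them the heart and skeletal muscle forms of complex IV.

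Levels below are log2 processed signal minus the log2 of the array's 75th percentile, so 0 is the brightness of that percentile. A level is compared between arrays for 1 probe and never between probes. Of the 81 genes, 79 entered the test because at least 2 of 6 arrays showed them well above background, and 77 were above it on all 6. The 2 others were Cox7b2, a complex IV isoform known from testis, and Cox8c, of the same kind, which were not well above background on any array. No member passed an adjusted p of 0.05 in any comparison with limma, and neither did any of the 20924 genes tested (0%). After 3 days 826 genes (3.95%) were higher and 550 (2.63%) lower in GHCre at an unadjusted p under 0.05, and 0 and 1 of the 79 members were.

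Across the arrays as a whole, the 75th percentile of signal ran between 186.15 and 298.51, and 53.8% to 65.7% of probes were above background. The lowest of both belonged to replicate 1 of the 3 day controls. Correlations between arrays over genes lay between 0.866 and 0.916. Gh, the hormone of the targeted cells, stood at 5.46 and 2.20 in the 3 day GHCre arrays and at 5.69 and 3.65 in the 3 day controls, which overlap. After 10 days it stood at 2.21 in the GHCre array and 7.86 in the control. Of 16 stem cell markers, 14 were well above background on some array and 12 or 13 on each array, but Sox2 on none. Prl, the hormone of lactotropes, was at 10.35 to 11.08 on all 6. Some free-text sample descriptions go against the titles, whose genotype and treatment match the other fields and were used.

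More of the subunit genes lay lower than higher in GHCre at both times, by small amounts, and none passed the test. After 3 days 31 of the 79 lay higher in GHCre and 48 lower, beside 52% of all genes lower. The median level of the members was 2.73 and 2.69 in the GHCre arrays and 2.99 and 2.78 in the controls, which do not overlap, with a spread of 0.11 between replicates (SD, pooled over both genotypes). The median difference, GHCre minus control, of the genes was -0.09 on the log2 scale, against -0.04 over all genes tested. On the slide that held replicate 1 of both genotypes it was -0.12, and on the slide that held replicate 2 of both it was 0.03. Without replicate 1 of the 3 day controls it was 0.02, so its direction rests on that array. After 10 days 30 members lay higher and 49 lower in the GHCre array, beside 50.1% of all genes lower, with a median difference of -0.11, against -0.0014 over all genes.

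The members also varied less than other genes from array to array. The absolute difference between genotypes after 3 days had a median of 0.23 over the members and 0.52 over all genes tested, and 63 of 79 members (79.7%) stayed within 0.5, against 48.3% of all genes. The spread between replicates had a median of 0.28 (SD) over the members and 0.59 over all genes. The members' probes are bright, with a median level of 2.76, against -0.85 over all genes, and brightness was not separated from gene function here. The replicates of the genotypes did not overlap for 6 members that lay higher in GHCre, beside 16.7% of all genes, and for 17 that lay lower, beside 21.3%. The 17 of 79 are close to the background share, and the 6 of 79 lie under it.

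**Figure D1:**
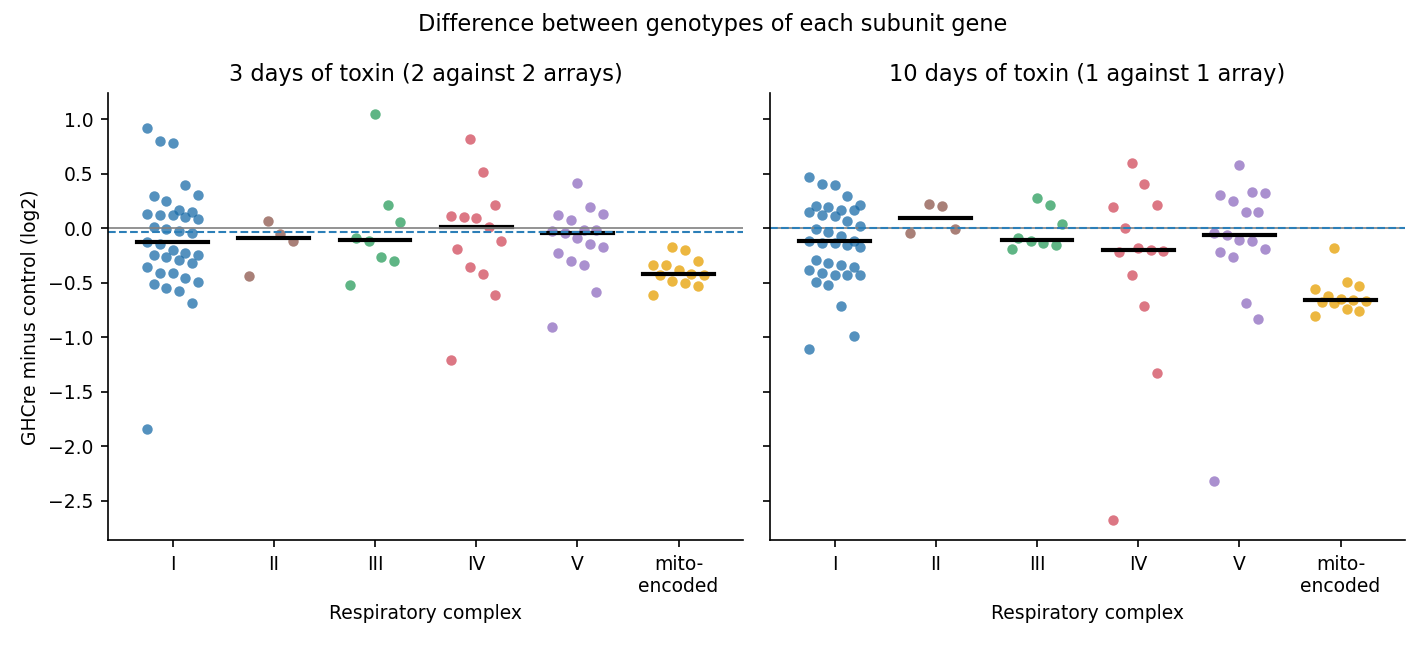
Difference between genotypes (GHCre minus control, log2) of each tested subunit gene, by complex, after 3 days (left) and 10 days (right). Each point is a gene, black bars are medians and the dashed line is the median of all genes tested. Nuclear subunits scatter on both sides of 0, with complex medians between -0.13 and 0.01 after 3 days, whereas the 13 mitochondrially encoded subunits all lie below 0.

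Complex I, the NADH dehydrogenase, held the member that differed most after 3 days. Ndufs1, the largest subunit, which carries iron-sulphur clusters, had levels of 0.08 and -1.0 in GHCre and 1.37 and 1.39 in control after 3 days. Both controls were above both GHCre arrays, and the difference was -1.84 ± 0.55 (SE; limma adjusted p = 0.735). It was the 1 member at an unadjusted p under 0.05 after 3 days. After 10 days the GHCre array stood at -0.01 and the control at -0.21, so the 3 day controls are the arrays that stand apart. Its only probe lies at chr1:63190360-63190419 (mm9, minus strand), and its first 30 of 60 bases are shown because no other probe checks this difference.
Ndufs1: ccgtccatatgctgagacatctaacaggga
Leaving out single arrays or changing the processing gave differences between -2.38 and -1.30.

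Other complex I members that lay lower in GHCre after 3 days included Ndufb11, an accessory subunit of the membrane arm, with levels of 4.27 and 4.50 in GHCre against 5.19 and 4.73 in control. The difference was -0.58 ± 0.43, and all 3 Ndufb11 probes gave between -0.69 and -0.55. After 10 days those probes gave between 0.36 and 1.85, the opposite side. Ndufs8, another iron-sulphur subunit, lay higher in GHCre, at -0.37 and -0.23 against -1.46 and -0.98 in control, a difference of 0.92 ± 0.43 (limma adjusted p = 0.817). It lay at -0.44 in the GHCre array and -0.61 in the control after 10 days. The complex I median difference was -0.13 after 3 days (15 of 37 higher, 22 lower) and -0.12 after 10 days (14 higher, 23 lower). The 3 day value was -0.22 on the slide of replicate 1 and 0.0055 on that of replicate 2. The largest 10 day differences were 0.47 for Ndufc2, at 3.40 in GHCre and 2.94 in control, and -1.10 for Ndufa8, at 1.55 in GHCre and 2.65 in control. Both belong to complex I's accessory subunits, and each rests on 1 array a group.

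Ndufa4 and Ndufa4l2 are named as complex I subunits, although NDUFA4 is now counted with complex IV, and NDUFA4L2 is known from human cells as a target of hypoxia signalling. Ndufa4l2 had levels of -0.18 and -0.25 in GHCre and -0.60 and -1.43 in control after 3 days, which do not overlap. After 10 days both genotypes were lower, at -2.04 in GHCre and -1.90 in control. The 10 minus 3 day difference in GHCre was -1.83 ± 0.60 (limma adjusted p = 1). Ndufa4l2 was the 1 member with an unadjusted p under 0.05 in that comparison, beside 1.88% of genes lower. Ndufa4 had 3.65 and 3.34 in GHCre against 3.41 and 2.80 in control after 3 days, and 2.64 in GHCre against 2.78 in control after 10 days.

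Complex II, succinate dehydrogenase, is encoded by the nucleus alone and also acts in the tricarboxylic acid cycle. Sdhd, a membrane anchor, had levels of 1.42 and 1.52 in GHCre and 2.19 and 1.62 in control after 3 days, a difference of -0.44 ± 0.44. After 10 days it was 1.56 in GHCre and 1.34 in control. Sdha, the flavoprotein, Sdhb, the iron-sulphur protein, and Sdhc, the other anchor, had overlapping arrays and 3 day differences of -0.05, 0.06 and -0.12. Their 10 day differences were 0.20, -0.01 and -0.05. A second Sdhb probe gave 0.05 after 3 days and 1.45 after 10 days, so the 2 Sdhb probes part in the single pair of 10 day arrays.

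In complex III, ubiquinol-cytochrome c reductase, Uqcrc1 had the highest difference of any member after 3 days. This core subunit had levels of 2.06 and 1.80 in GHCre and 1.51 and 0.26 in control, a difference of 1.05 ± 0.60 (limma adjusted p = 0.857). The 2 controls lie further apart than the nearer control lies from GHCre, and without replicate 2 of the controls the difference was 0.42. The probe spans an intron (chr9:108851008-108851487, mm9, plus strand, 480 bases of genome for 60 of probe), so it reads spliced RNA.
Uqcrc1: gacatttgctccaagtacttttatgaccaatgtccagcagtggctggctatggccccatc
Uqcrc2, the other core subunit, had 1.50 and 2.18 in GHCre against 2.27 and 2.01 in control, and the arrays overlap. Uqcrh, the hinge protein that helps bind cytochrome c, had 5.38 and 5.35 in GHCre against 5.69 and 5.56 in control, a difference of -0.26 ± 0.40. Its second probe gave -0.22. The complex III median was -0.11 after 3 days and -0.10 after 10 days (5 of 8 lower each time), where the single differences lay between -0.19 for Uqcrh and 0.28 for Uqcrc2.

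Uqcr10, a small complex III subunit, has 3 probes that disagreed in direction after 3 days. The brightest (chr11:4604252-4604311, mm9, minus strand) had levels of 3.81 and 4.12 in GHCre and 4.14 and 4.83 in control after 3 days, a difference of -0.52 ± 0.47. The others, at chr11:4601979-4602038 and chr11:4601972-4602031, share 53 bases with each other. They gave 0.47 and 0.40, each with GHCre above control on both arrays. The brightest probe shares 20 bases or more with a probe of 1 other gene, on the opposite strand, and these others share none. The first probe is shown in full, with the first ATG in its sequence in capitals, and the others by 30 bases that both hold.
Uqcr10, first: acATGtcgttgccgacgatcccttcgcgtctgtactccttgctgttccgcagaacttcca
Uqcr10, second: acttctgctgtgtttgagtacagctgtcag
No single direction can therefore be given for Uqcr10. With the mean of its probes the difference was 0.11.

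In complex IV, cytochrome c oxidase, the core subunits are mitochondrially encoded and the nuclear members include tissue isoforms. Cox7a1, the heart and skeletal muscle form of subunit 7a, had levels of -0.82 and -0.93 in GHCre and -1.77 and -1.61 in control after 3 days. After 10 days the order was turned, at -1.78 in GHCre and -0.45 in control. The differences were 0.82 ± 0.40 after 3 days and -1.33 after 10 days, and the difference between them was -2.14 ± 0.69 (limma adjusted p = 1). It was the 1 member with an unadjusted p under 0.05 in that comparison, beside 2.49% of genes lower. Its signs were the same under all alternatives tried. The probe lies at chr7:30970337-30970948 (mm9, plus strand), which is 612 bases of genome for 60 of probe and so spans an intron.
Cox7a1: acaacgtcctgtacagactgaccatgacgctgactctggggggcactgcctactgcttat
Cox7a2, the widely made form of the same subunit, had 3.15 and 3.13 in GHCre against 3.17 and 2.92 in control after 3 days, and 2.99 in GHCre against 3.20 in control after 10 days.

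The remaining isoform sets of complex IV did not part in a common way. Cox6a1, made in most tissues, had a 3 day difference of -0.12 and Cox6a2, the muscle form, one of -1.21 ± 1.19, with overlapping arrays in both. Cox8a, made in most tissues, had 0.10, and Cox8b, the muscle form known from the mouse, had 0.22 ± 1.57. Cox8b was above background on 5 of 6 arrays, and its 10 day difference of -2.68, the lowest of any member, came from a level of -2.44 in GHCre and 0.24 in control. Cox6b1 had 0.88 and 2.10 in GHCre against 2.06 and 1.77 in control, and Cox6b2, a form known from testis, 4.84 and 3.50 in GHCre against 4.32 and 3.00 in control, so both overlap. Cox6b1 had the highest 10 day difference of the complex, 0.60. Cox7c and Cox7b, small subunits without such partners above background, lay lower in GHCre after 3 days, at -0.61 ± 0.47 and -0.36 ± 0.42. Cox7c had 4.02 and 4.12 in GHCre against 5.05 and 4.31 in control, and its other 2 probes gave -0.62 and -0.52 with overlapping arrays. Cox7b had 1.50 and 1.81 in GHCre against 2.12 and 1.91 in control, and after 10 days 1.60 in GHCre against 2.03 in control. The complex IV median difference was 0.01 after 3 days (7 of 13 higher, 6 lower) and -0.20 after 10 days (4 higher, 9 lower). The 3 day value was -0.39 on the slide of replicate 1 and 0.21 on that of replicate 2. The median level of the complex after 3 days was 3.15 and 3.13 in GHCre and 3.08 and 2.92 in control.

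**Figure D2:**
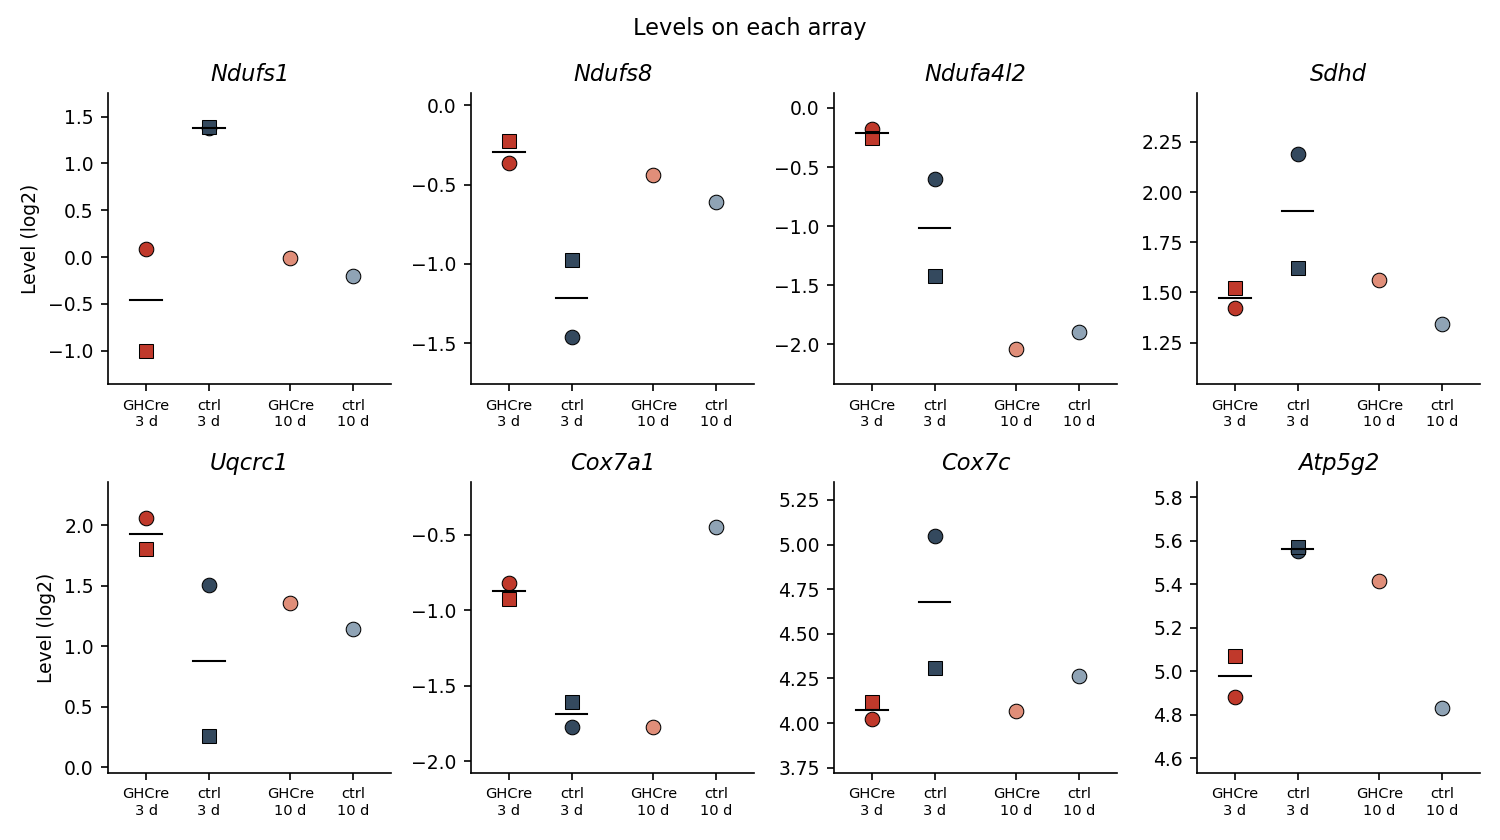
Level (log2, relative to the array's 75th percentile) of 8 subunit genes on each of the 6 arrays. Circles are replicate 1, squares replicate 2 and bars the mean of the 3 day replicates, and each panel has its own axis. The 8 were chosen among members whose GHCre and control arrays do not overlap after 3 days, so that trait was set by the choice. For Ndufs1, Ndufa4l2, Sdhd, Cox7a1 and Atp5g2 the order of the genotypes is turned after 10 days. Of all tested genes without overlap after 3 days, 46.6% lie on the other side after 10 days.

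In complex V, ATP synthase, 3 genes encode the same mature c subunit of the membrane ring. Of these, Atp5g2 had levels of 4.88 and 5.07 in GHCre and 5.55 and 5.57 in control after 3 days, a difference of -0.59 ± 0.40. After 10 days it was 5.42 in GHCre and 4.83 in control, a difference of 0.58 on the other side. Its second probe gave -0.13 and 0.29. Atp5g1 had 4.65 and 4.54 in GHCre against 5.11 and 4.68 in control after 3 days. Both Atp5g1 probes gave values below 0 after 3 days, of -0.30 and -0.58, but -0.68 and 0.35 after 10 days. Atp5g3 had 3.51 and 3.22 in GHCre against 3.28 and 3.31 in control. Atp5c1, the central stalk subunit gamma, had 2.70 and 2.19 in GHCre against 2.79 and 2.78 in control, a difference of -0.34 ± 0.43, and its second probe gave -0.32. Atp5o, which couples the stator to the catalytic head, had -0.32 and -0.20 in GHCre against -0.50 and -0.86 in control, a difference of 0.42 ± 0.42. The complex V median was -0.05 after 3 days (5 of 17 higher, 12 lower) and -0.07 after 10 days (7 higher, 10 lower). After 3 days it was -0.09 on the slide of replicate 1 and 0.03 on that of replicate 2.

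Atp5s and Atp5sl stand in complex V by their array names only, and their current symbols are Dmac2l and Dmac2. Atp5s was above background on 3 of 6 arrays. After 10 days it was not well above background in GHCre, where it measured -5.62, and was at -3.30 in control. With the main processing that is at least 1.96-fold higher in the control, from 1 array a group. Such a bound takes the lower group at no less than the weakest signal above background on its array, and does not count the spread between arrays. Under 12 alternatives the 10 day difference of Atp5s lay between -2.46 and -0.33. Atp5sl ranged widely among replicates, at 1.57 and -1.45 in GHCre and -0.52 and 1.09 in control after 3 days. Without both, the complex V median was -0.02 after 3 days, where the sign was the opposite under 4 of 15 alternatives.

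**Figure D3:**
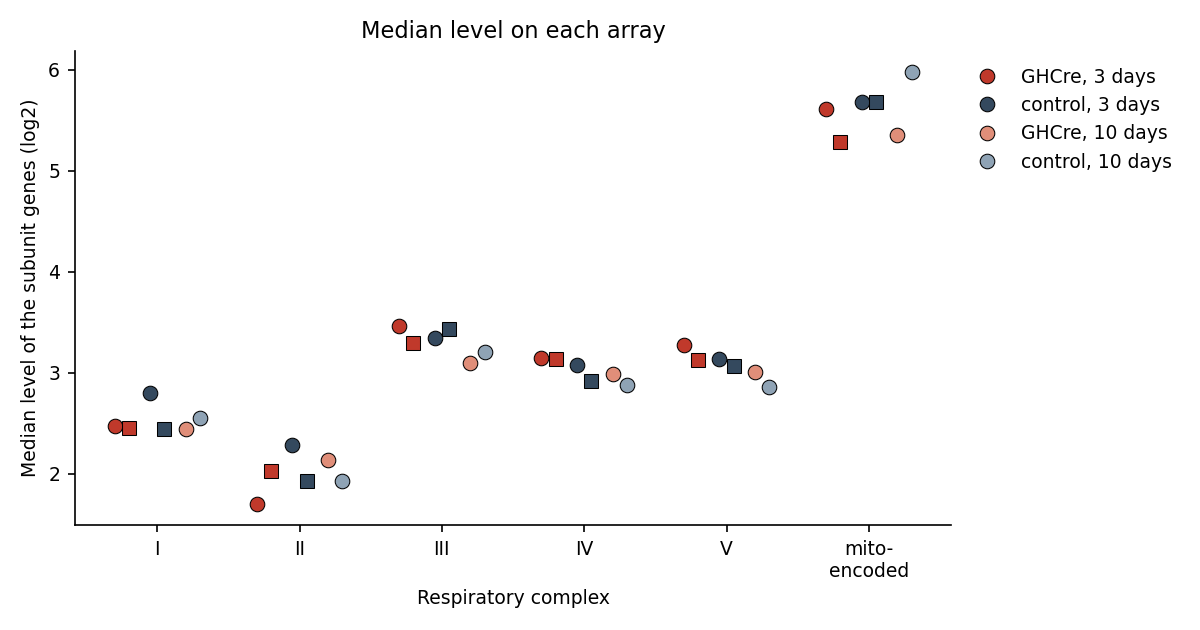
Median level (log2) of the tested subunit genes of each complex on each array, with circles for replicate 1 and squares for replicate 2. Heights differ between complexes because their probes differ and are not to be compared. After 3 days the genotypes overlap in complexes I, II, III and V, and in complex IV both GHCre medians lie above both control medians. The mitochondrially encoded median is lower in GHCre than in control at both times.

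The 13 subunits encoded by mitochondrial DNA were read as a list of their own, and all 13 lay lower in GHCre at both times. Their median level was 5.61 and 5.29 in GHCre and 5.68 and 5.68 in control after 3 days, and 5.36 in GHCre and 5.98 in control after 10 days. For all 13 the 3 day arrays of the genotypes did not overlap, beside 21.3% of all genes, and the median difference was -0.42 after 3 days (range -0.61 to -0.18) and -0.66 after 10 days (range -0.81 to -0.18). On the slides of replicates 1 and 2 the 3 day median was -0.32 and -0.45. Under 15 alternatives the median lay between -0.53 and -0.27 after 3 days, and under 14 between -0.67 and -0.60 after 10 days. No single gene passed (lowest limma adjusted p 0.867, with 0 at an unadjusted p under 0.05), and these transcripts are cut from shared precursors and are not independent. The mt-Nd3 probe is placed on chromosome 1 in the files' mm9 annotation, where a nuclear copy lies.

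Mitochondrial transcripts of complexes I, III, IV and V all lay lower in GHCre at both times, by differing amounts. Those given here are of complex I. mt-Nd2, of complex I, had levels of 4.29 and 3.69 in GHCre and 4.73 and 4.47 in control after 3 days, and 4.04 in GHCre and 4.77 in control after 10 days. mt-Nd4, also of complex I, had 6.76 and 6.66 in GHCre and 7.01 and 7.38 in control, and then 6.89 in GHCre and 7.58 in control. mt-Nd6, which is read from the opposite DNA strand, had 5.85 and 5.29 in GHCre against 6.35 and 5.85 in control after 3 days and the smallest 10 day difference, -0.18. The nuclear members, given above, had 48 and 49 of 79 below 0, and whether the 2 genomes' subunits differ in their response was not tested. The summed signal of 7 somatotrope markers, Gh among them, was also lower in GHCre at both times. In units of the 75th percentile it was 97.9 and 129 in GHCre and 180.2 and 219 in control after 3 days, and 149 in GHCre and 349 in control after 10 days. Without Gh the 6 others summed to 54.0 and 125 in GHCre and 128 and 207 in control after 3 days, but to 144 in GHCre and 116 in control after 10 days, so the lower 10 day sum rests on Gh. In such a sorted mixture fewer cells of a type and less RNA per cell cannot be told apart, and the markers' part in the mitochondrial values was not tested.

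The nuclear subunits more often lay lower after 10 than after 3 days of toxin in both genotypes, which were measured on separate arrays. In GHCre 56 of 79 lay lower after 10 days, beside 42.7% of all genes, with a median of -0.16 against 0.11 over all genes. In control 54 of 79 lay lower, beside 44.9% of all genes, with a median of -0.23 against 0.09 over all genes. The median stayed below 0 under all 15 alternatives in GHCre, between -0.22 and -0.10, and all 14 in control, between -0.27 and -0.08. Between the GHCre arrays of both times that share a slide it was -0.13, against 0.051 over all genes. The 10 day control was alone on its slide, so slide and day cannot be told apart in control, and there the value without replicate 1 of the 3 day controls was -0.08.

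By complex, the 10 minus 3 day median of complex I was -0.22 in GHCre and -0.27 in control. Complex II had 0.14 in GHCre and -0.08 in control, and complex III -0.16 in GHCre and -0.18 in control. Complex IV had -0.15 in GHCre and 0.01 in control, and complex V -0.18 in GHCre and -0.25 in control. The mitochondrially encoded subunits had 0.05 in GHCre (7 of 13 higher) and 0.29 in control (11 of 13 higher). The difference of the genotype effects, 10 against 3 days, had a median over nuclear members of 0.02 (41 of 79 above 0, beside 51.4% of all genes, and 38 below), which was below 0 under 6 of 14 alternatives.

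**Figure D4:**
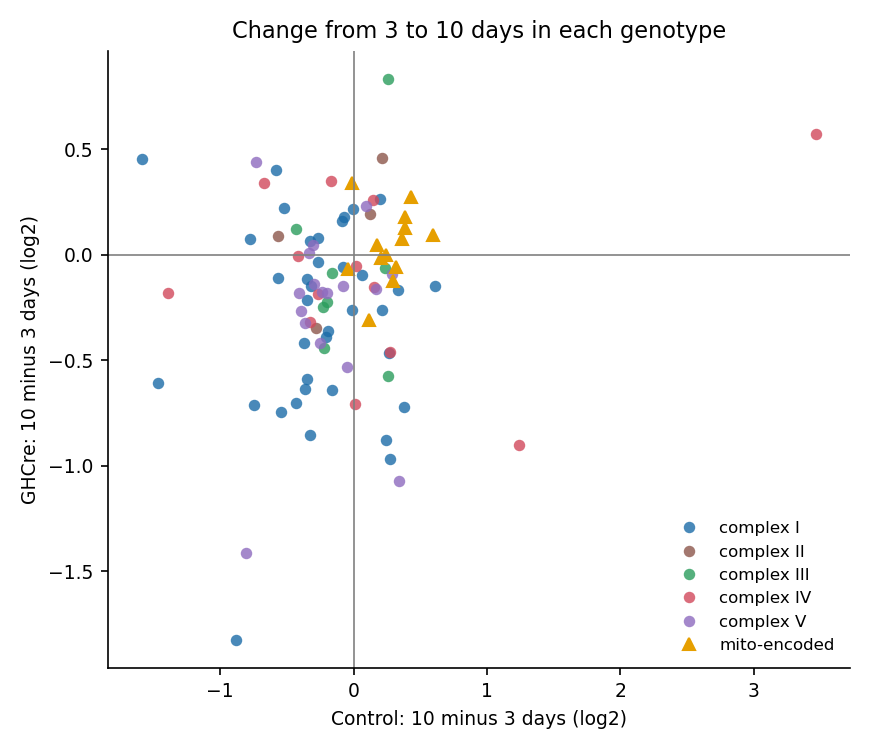
Difference between 10 and 3 days (log2) of each subunit gene in GHCre (vertical) and in control (horizontal), which come from separate arrays. Of 79 nuclear genes 38 (48.1%) lie below 0 on both axes and 7 above 0 on both. Taken singly, 54 lie below 0 in control and 56 in GHCre, so many would lie below on both by these numbers alone. Whether the same genes fall together beyond that was not tested. Among all 20924 genes tested 3927 (18.8%) lie below 0 on both and 6519 above 0 on both. The mitochondrially encoded genes (triangles) lie mostly right of 0.

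Where a gene had several probes, they bounded how far a single value can be trusted. Of 28 members with more than 1 probe, 27 had at least 2 above background. Their probes differed by a median of 0.12 after 3 days and 0.18 after 10 days, and gave opposite signs in 7 and 6 of the 27. Those after 3 days included Ndufa3, Ndufa5, Ndufb5, Ndufv3, Uqcr10 and Uqcr11. The 3 probes of Ndufv3, a complex I flavoprotein subunit, gave 0.12, -0.55 and 1.19 at the 3 sites between chr17:31663758-31663817 and chr17:31668209-31668268 (mm9). The 4 of Ndufb5 gave -0.41, -0.56, 0.85 and -0.58. The third Ndufa3 probe, above background on 4 arrays, gave -1.07, whereas the others gave 0.30 and 0.20. The probes of Ndufa5 gave 0.15 and -0.21 and those of Uqcr11 0.06 and -0.04, all with overlapping arrays. Of 122 member probes 18 share 20 bases or more with a probe of another gene, and the annotation puts 2 of the 3 Atp5k probes on chromosome Y and 1 Cox5b probe on chromosome 15, away from the genes.

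**Figure D5:**
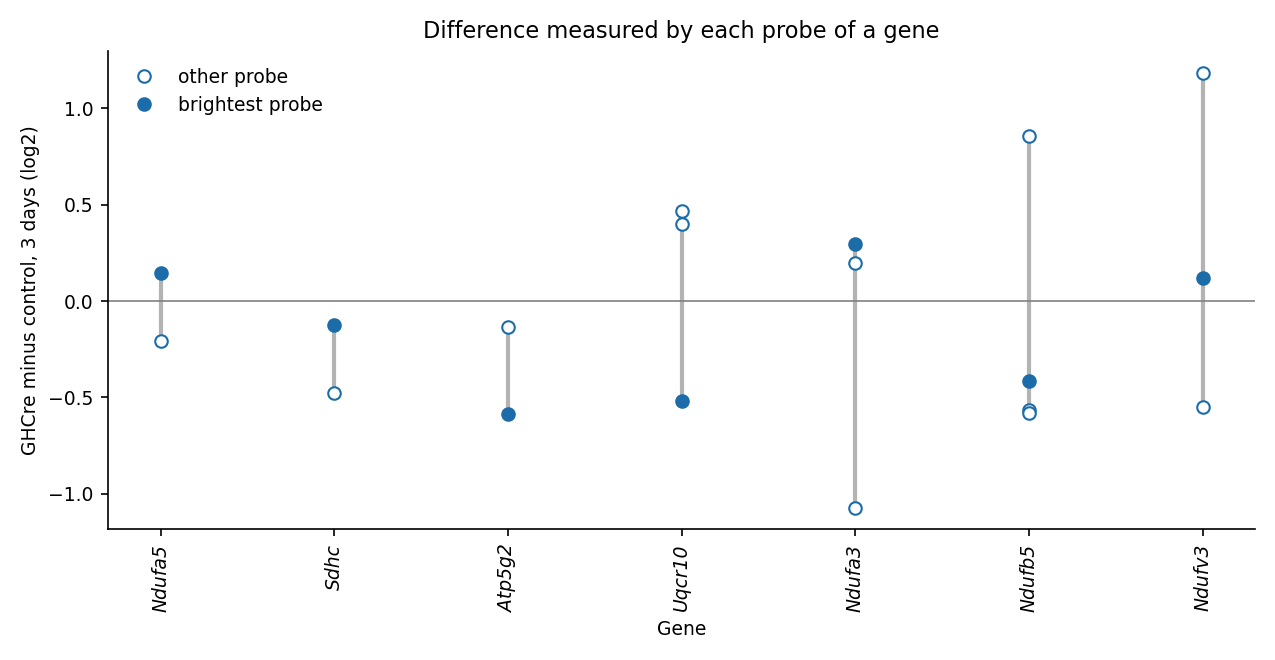
Difference between genotypes after 3 days (GHCre minus control, log2) measured by each probe above background, for the 7 of 27 members whose probes differ by 0.3 or more, ordered by that range. Filled points are the brightest probe, used for the gene. Of the 27 the range is largest, at 1.73, for Ndufv3.

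Promoters were compared for a site that many of these genes are known to share, that of nuclear respiratory factor 1. RefSeq promoter windows (GRCm38.p6, 250 bases before to 50 after the start) were matched for 68 of the 81. GCGCANGCG, searched on both strands, occurred in 20 of the 68 (29.4%), against 7.03% of 27025 genes with a window. CCGGAAG, of the ETS family, occurred in 16 (23.5%, against 9.93%), and AAGATGGCG, of YY1, in 8 (11.8%, against 1.64%). AAGGTCA, of the estrogen-related receptors, occurred in 8 (11.8%, against 5.38%), and TATAAA, of the TATA box, in 7 (10.3%, against 15.7%). These matches are to letters and no binding was measured. The 3 members shown lay lower in GHCre after 3 days and hold the first motif upstream of the start, with the motif in capitals on the strand of the gene. In Atp5g2 the capitals cover 2 overlapping matches, 1 on each strand.
Atp5g2, chr15:102671060-102671109, minus strand: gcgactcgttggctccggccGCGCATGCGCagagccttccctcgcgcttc
Atp5c1, chr2:10080433-10080469, minus strand: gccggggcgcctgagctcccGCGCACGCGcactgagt
Sdhd, chr9:50603900-50603948, minus strand: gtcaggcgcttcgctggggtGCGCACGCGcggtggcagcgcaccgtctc
Having the first motif did not set members apart after 3 days. Of 20 tested members with it 12 lay lower in GHCre (median -0.04), and of 47 without it 27 did (median -0.04). Uqcrc1 and Atp5o, which also hold it, lay higher. With the ETS motif 12 of 16 lay lower after 3 days, against 27 of 51 without it, and after 10 days 8 of 16 against 33 of 51. With the YY1 motif 6 of 8 lay lower after 3 days, against 33 of 59 without it. After 10 days 7 of 8 did (median -0.37), against 34 of 59 (median -0.07). These splits were not tested.

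Genes of the same pathway outside the name pattern were read from lists. Of 7 further subunits and carriers, Ndufab1, the mitochondrial acyl carrier protein that is part of complex I, had levels of -2.21 and -1.53 in GHCre after 3 days and was not well above background in either control, at -5.83 and -6.41. It was at least 4.09-fold higher in GHCre (limma adjusted p = 0.653), but after 10 days it was at -2.66 in GHCre and -2.24 in control. Cyc1, cytochrome c1 of complex III, had 2.62 and 2.33 in GHCre against 0.82 and 1.48 in control, a difference of 1.33 ± 0.47 (adjusted p = 0.758), and 0.16 after 10 days. Cox7a2l, which helps join complexes III and IV, had a difference of -0.60 and Cox4i1, the main form of subunit 4, one of 0.04.

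Of the other lists, 0 genes passed the adjusted p. Among 42 tested assembly factors 21 lay higher and 21 lower after 3 days (median -0.03, with 3 higher and 0 lower at an unadjusted p under 0.05, beside 3.95% and 2.63% of all genes). They included Tmem126b, of complex I assembly, at -1.13 and -0.68 in GHCre against -2.88 and -2.63 in control, and Sdhaf2, of complex II assembly, at least 1.37-fold higher in GHCre. Among 28 regulators of mitochondrial gene expression 16 lay higher and 12 lower, and the 3 at an unadjusted p under 0.05 were all lower, beside 2.63% of all genes. The median was 0.30 after 3 days and -0.33 after 10 days, when 11 lay higher and 17 lower. The 3 included Polg2, the accessory subunit of mitochondrial DNA polymerase. Polg2 had -0.50 and -1.02 in GHCre against 1.17 and 0.82 in control. Esrrb, a receptor of the estrogen-related family, had a mean level of -6.20 in GHCre and -3.58 in control. It was above background on 1 of 2 control arrays and on neither GHCre array, so no bound is given. Ppargc1a, a coactivator of mitochondrial genes, had -3.36 and 0.99 in GHCre against -0.17 and 0.60 in control, which overlap.

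Among 27 genes of the tricarboxylic acid cycle and pyruvate dehydrogenase 16 lay higher and 11 lower (median 0.25), with Suclg1, of succinyl-CoA ligase, at 1.29 ± 0.44 and Pdha1, of pyruvate dehydrogenase, at -1.33 ± 0.41. Of 22 glycolytic genes 10 lay higher and 12 lower (median -0.07). The glucose carrier Slc2a1 had -0.29 ± 0.46 and the lactate dehydrogenase Ldha 0.29 ± 0.56, both with overlapping arrays. Of 9 tested mitochondrial carriers 8 lay lower (median -0.31), but the median was -0.61 on the slide of replicate 1 and -0.03 on that of replicate 2, and after 10 days 7 of 9 lay higher (median 0.04). After 3 days they included Vdac3, a channel of the outer membrane, at -1.16 ± 0.47, and the uncoupling protein Ucp2 at -0.74 ± 0.40. Pdss1, which makes the tail of coenzyme Q, had -1.77 and -1.78 in GHCre against -0.25 and -0.24 in control, the lowest p of 12 coenzyme Q genes (adjusted p = 0.702), and after 10 days -1.56 in GHCre against -3.14 in control.

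Summed signals of other cells' marker lists were read as well, and those of the stem cell markers overlapped between the genotypes after 3 days. The summed signal of 14 markers of other hormone cells was 1696 and 1505 in GHCre and 2443 and 2379 in control after 3 days, and 2062 in GHCre and 1734 in control after 10 days. Most of it was Prl, and the 13 others summed to 151 and 203 in GHCre and 277 and 250.9 in control, and to 260 in GHCre and 293 in control after 10 days, when 8 of 13 tested markers lay lower (median -0.71). That of 11 fibroblast and pericyte markers was 273 and 227 in GHCre and 208 and 141 in control, and 173 in GHCre and 175 in control after 10 days. For 16 stem cell markers it was 87.5 and 66.7 in GHCre and 71.1 and 53.3 in control, and 50.7 in GHCre and 61.9 in control. For 13 macrophage and myeloid markers, of which Aif1 and C1qa were not above background on any array, it was 162 and 166 in GHCre and 232 and 195 in control, and 184 in GHCre and 201 in control. The sum and the single genes part after 3 days, when 7 of the 11 tested macrophage and myeloid markers lay higher in GHCre (median 0.25). Their part in the values of the subunit genes was not tested.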

How the data were processed

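Per the labels' protocols, 1 ng of total RNA from 25000 to 50000 sorted cells was amplified, labelled and hybridised to 1-colour Agilent arrays. Per the file headers, the deposited signal is an intensity from Agilent Feature Extraction 10.7.3.1 after background subtraction. The deposited series table holds log2 values that matched quantile normalized scanner values (correlation at least 0.9999) and was an alternative. Arrays give no counts, so their number limits precision.

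Spots of a probe were averaged, each array was scaled by its 75th percentile, and a gene was its brightest probe. Names came through RefSeq accessions (27234 probes) or symbols (4128). With limma 3.58.1 (R 4.3.3), 1 model of 4 group means took in the 6 arrays and 20924 genes, with Benjamini-Hochberg adjusted p under 0.05. Its 2 residual degrees of freedom come from the 3 day arrays, and the 10 day comparisons assume that single arrays vary alike. Scripts were tested on simulated data. Figures used matplotlib with Python.

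Members were named where they had, in their complex, the lowest unadjusted p after 3 days without overlap (2 in each direction) or the largest 10 day difference, where they were isoforms or complex II subunits, or where probes disagreed or lacked signal. From the other lists the 2 of lowest p were named, with Gh, Prl, Sox2, Ppargc1a, Slc2a1 and Ldha. Cox7a2l, Cox4i1 and mt-Nd6 were chosen after their values were seen. The members and lists were chosen with earlier results of these data known. Same-numbered replicates of the genotypes share a slide after 3 days, and their deviations correlated at 0.09 over all genes, so the number was not treated as a pairing. Over the members these deviations correlated at -0.32, and a replicate block was among the alternatives.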

Additional observations from a re-analysis of the deposited data

Results flagged for a closer look

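These results lie on opposite sides at 3 and 10 days, with no overlap of the 3 day arrays. The differences between times were not tested for the marker lists, and for the genes none passed an adjusted p of 0.05 in limma. Each 10 day value rests on 1 array a group. In all, 11 of the 23 members without overlap after 3 days lay on the other side after 10 days (47.8%), beside 46.6% of the 7936 such genes among all tested, so the members' share is close to the background.

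The values are GHCre minus control on the log2 scale. Ndufs1 had -1.84 after 3 days and 0.20 after 10 days, Ndufb11 -0.58 and 0.40, Ndufa4l2 0.80 and -0.14, and Sdhd -0.44 and 0.22 at the same times. Uqcr10 had -0.52 and 0.037 by its brightest probe, whereas its other 2 probes lay above 0 at both times. Cox7a1 had 0.82 and -1.33, Atp5g2 -0.59 and 0.58, and Atp5o 0.42 and -0.066.

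Among marker lists, the median level of fibroblast and pericyte markers differed by 0.75 after 3 days and -0.25 after 10 days. That of pituitary stem cell markers differed by 0.51 and -0.17, but their summed signals overlapped after 3 days. The median level of macrophage and myeloid markers differed by 0.28 and -0.93, although their summed signal was lower in GHCre at both times. That of red blood cell markers differed by 1.23 and -2.24, but their summed signals overlapped after 3 days. These were 7.58 and 1.34 in GHCre and 1.99 and 1.23 in control. The median difference of the red blood cell genes was 1.44 on the slide of replicate 1 and 0.08 on that of replicate 2.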

How the results depend on the processing

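Members past the adjusted p of 0.05 numbered 0 in all 5 comparisons under all alternatives, with 1 member at an unadjusted p under 0.05 in limma after 3 days. Of 2469 alternative values of named genes 0 passed, and the lowest adjusted p was 0.385. Of 432 alternative medians 47 moved by more than the spread between replicates, the cause was not tested, and medians near 0 changed sign easily. The replicate block changed no call, with a 3 day member median of -0.09 as without it and a 10 against 3 day median of -0.23 in control. Arrays limit this: the 10 day groups have 1 array each.

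Medians that moved are grouped by setting. With quantile normalization the 10 against 3 day median in control was -0.087 over all members, -0.062 in complex III, 0.13 in IV and -0.14 in V, the difference of genotype effects was -0.14 in III and -0.11 in IV, and the 3 day difference in V was 0.070. The series table gave in control -0.096 over all members, -0.067 in III, 0.12 in IV and -0.15 in V, -0.13 in III and -0.11 in IV for the difference of effects, and -0.066 in IV for 10 against 3 days in GHCre. Normexp with quantile normalization gave in control -0.080 over all members, -0.037 in III and 0.13 in IV, for the difference of effects -0.15 in III and -0.11 in IV, and 0.0048 in III after 3 days. Normexp with the percentile gave 0.033 in III after 3 days, -0.075 in IV for the difference of effects and -0.049 in IV for 10 against 3 days in GHCre. Without a filter complex IV had -0.12 after 3 days, -0.053 for 10 against 3 days in GHCre and -0.070 in control. In control complex IV had -0.081 with only genes above background on all 6 arrays and -0.17 with every probe. The mean of all probes gave -0.14 in V after 3 days and 0.45 in II for the difference of effects. With the slide as a block 10 against 3 days in GHCre was 0.059 in IV and -0.098 in V.

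Leaving out each 3 day array in turn gave ranges. After 3 days these were -0.26 to 0.052 in complex I, -0.10 to 0.023 in III and -0.20 to 0.11 in IV. For the difference of effects they were -0.093 to 0.14 in I, -0.13 to 0.063 in III, -0.18 to 0.086 in IV and -0.066 to 0.12 in V. For 10 against 3 days in GHCre they were -0.21 to 0.044 in IV and -0.27 to -0.084 in V. In control they were -0.27 to -0.085 over all members, -0.35 to -0.049 in I and -0.089 to 0.011 in IV.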
